A study of Mus musculus with 240 samples.

Results

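The enzymes and partners that write, copy and remove 2 silencing marks, DNA methylation and H3K27 methylation, were followed in 10 genes of a mouse glioma model. They were the rows of the gene table with the symbols Ezh1, Ezh2, Suz12, Eed, Dnmt1, Dnmt3a, Dnmt3b, Uhrf1, Tet1 and Tet3, 10 of 34623 genes. RNA came from tdTomato-positive oligodendrocyte precursor cells (OPCs) cut from brain sections by laser capture microdissection. WT mice were labelled wild-type and CKO mice were Trp53-/- Nf1-/-. All were treated with tamoxifen and collected 12, 90 or 150 days after its start (dpi). The bulk libraries, 48 from 37 animals, covered WT at 12 dpi (5 animals), CKO at 12 dpi (7), WT at 90 dpi (5), CKO at 90 dpi (7), WT at 150 dpi (6) and tumour cells of CKO mice at 150 dpi (7). Small libraries of 10 cells came from CKO mice only, at 12 and 90 dpi, as 112 separately captured samples (10-cell) and 80 aliquots of a pool of cells (pool-and-split). The labels used here give neither the strain and age of the mice nor the driver of recombination.

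Bulk depth ran from 0.0936 to 31.3 M (1e+06) counts per animal, and the shallowest animal, WT_21167 at 90 dpi, had 5 counts of Ezh1 and 0 of Uhrf1. The 2 libraries of CKO_20647 at 90 dpi stood apart from each other, with a median difference of 1.90 log2 units over the 10 genes, against 0.15 to 0.38 in the other 10 animals sequenced from 2 libraries. Without either animal the number of the 10 genes that passed was the same in each of the 9 bulk comparisons. Nf1 ran from 176 to 216 CPM (counts scaled to the size of the library) in CKO and from 261 to 357 CPM in WT animals at 12 dpi, while Trp53 ran from 26.3 to 36.9 and from 23.1 to 44.2 CPM. At 90 dpi CKO_20647 had 302 CPM of Nf1, within the WT range of 274 to 343 CPM. Counts per gene do not separate deleted from remaining exons, a limit that holds for both genes. Trp53, whose ranges overlapped, does not check the genotype, and the Nf1 level is no direct measure of deletion. The OPC marker Pdgfra reached 246 to 712 CPM in WT at 150 dpi, but the neuronal marker Snap25 reached 3690 to 5808 CPM there, so the captured tissue held RNA of other cells.

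Polycomb repressive complex 2 (PRC2) methylates H3K27 and keeps developmental genes silent. Its catalytic subunit is either EZH2, typical of dividing cells, or EZH1, typical of resting cells, and both need the core subunits SUZ12 and EED. DNA methylation is set by DNMT3A and DNMT3B and copied at replication by DNMT1, which UHRF1 brings to newly made DNA, while TET enzymes oxidise 5-methylcytosine as the first step of its removal. In bulk samples, fewer cells of a type and less RNA per cell cannot be told apart.

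A promoter of each of 4 genes is shown because these genes behaved differently in the tumours. Ezh2 and Uhrf1 rose, Dnmt1 followed the cell cycle genes from tumour to tumour, and Ezh1 fell. For Dnmt1 and Uhrf1, which have other starts, the start with a match is shown. Each sequence is the RefSeq stretch of GRCm38.p6 from 250 bases before to 50 bases after a transcription start, read 5′ to 3′ along the gene. Capitals mark matches to an E2F-type octamer (TTTGGCGC, TTTCGCGC, TTTGCCGC or TTTCCCGC, searched on both strands, with overlaps allowed), a kind of element found at genes of the replication programme.
Ezh2, chr6:47594981-47595280, minus strand: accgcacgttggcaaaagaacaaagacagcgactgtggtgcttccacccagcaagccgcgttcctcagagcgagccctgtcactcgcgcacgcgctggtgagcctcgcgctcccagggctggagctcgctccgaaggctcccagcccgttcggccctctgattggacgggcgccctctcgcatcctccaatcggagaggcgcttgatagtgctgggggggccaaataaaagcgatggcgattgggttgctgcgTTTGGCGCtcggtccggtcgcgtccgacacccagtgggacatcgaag
Uhrf1, chr17:56304063-56304362, plus strand: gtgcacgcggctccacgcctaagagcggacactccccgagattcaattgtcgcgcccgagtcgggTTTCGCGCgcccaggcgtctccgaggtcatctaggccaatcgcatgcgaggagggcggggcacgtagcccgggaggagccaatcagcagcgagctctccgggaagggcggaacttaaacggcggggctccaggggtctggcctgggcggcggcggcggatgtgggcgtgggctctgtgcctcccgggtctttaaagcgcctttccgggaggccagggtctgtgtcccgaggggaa
Dnmt1, chr9:20952574-20952873, minus strand: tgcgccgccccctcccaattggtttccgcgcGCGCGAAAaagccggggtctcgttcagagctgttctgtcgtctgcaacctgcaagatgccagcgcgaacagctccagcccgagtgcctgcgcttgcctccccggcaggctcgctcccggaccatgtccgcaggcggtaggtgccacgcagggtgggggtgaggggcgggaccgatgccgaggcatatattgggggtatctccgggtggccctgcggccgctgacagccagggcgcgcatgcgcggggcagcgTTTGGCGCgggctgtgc
Ezh1, chr11:101226414-101226713, minus strand: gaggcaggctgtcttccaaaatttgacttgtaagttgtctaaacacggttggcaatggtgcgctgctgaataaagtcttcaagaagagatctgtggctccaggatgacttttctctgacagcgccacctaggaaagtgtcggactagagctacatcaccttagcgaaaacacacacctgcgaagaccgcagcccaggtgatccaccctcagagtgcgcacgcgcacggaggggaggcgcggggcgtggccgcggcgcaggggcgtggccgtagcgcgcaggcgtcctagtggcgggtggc
The Ezh2 match began at base 4 after the start. The Uhrf1 match began 185 bases before the start. Dnmt1 had a match on the reverse strand from 219 bases before the start and another from base 34 after it. Of the 10 genes, 4 had a match in at least 1 promoter: these 3 and Suz12, whose match began 219 bases before its start. Suz12 did not pass between tumours and WT at 150 dpi (log2 difference 0.14). Eed and Dnmt3a had no match but followed the cell cycle genes between tumours (r = 0.87 and 0.83). The 4 genes shown are thus a choice, and a relation of matches to changes was not tested. Of the 15 promoters of the 10 genes 4 held a match, and the other starts of Dnmt1 and Uhrf1 held none. A gene with more starts had more chances of a match. A match was present in 744 of 32851 RefSeq mouse promoters of this length (2.26%), or in 704 of 27025 genes (2.60%). The 4 matching promoters held 31 to 41 CpG dinucleotides, against a median of 7 over all promoters, and the Ezh1 promoter held 23 without a match. A match is a description of the sequence and no measure of binding.

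Compared per kilobase of annotated exon, Suz12 had the highest level of the 10 genes in WT OPCs at 150 dpi, with a median of 26.7 CPM per kb. Tet3 (12.1), Dnmt1 (12.0), Dnmt3a (11.7), Ezh1 (9.72) and Tet1 (8.43 CPM per kb) came next, with ranges that overlapped between neighbours. Ezh2 (4.53) and Eed (3.96 CPM per kb) followed, and Uhrf1 (0.595) and Dnmt3b (0.211 CPM per kb) were the lowest. In the tumours Suz12 was still highest at 24.7 CPM per kb. Ezh2 stood next at 11.2 CPM per kb, although its range overlapped that of Dnmt1 at 10.0. Uhrf1 had moved to 8.28 CPM per kb, and Ezh1, at 4.92 CPM per kb, was above Dnmt3b only. The exons used by these cells were not measured, so levels between genes carry that uncertainty.

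**Figure D1:**
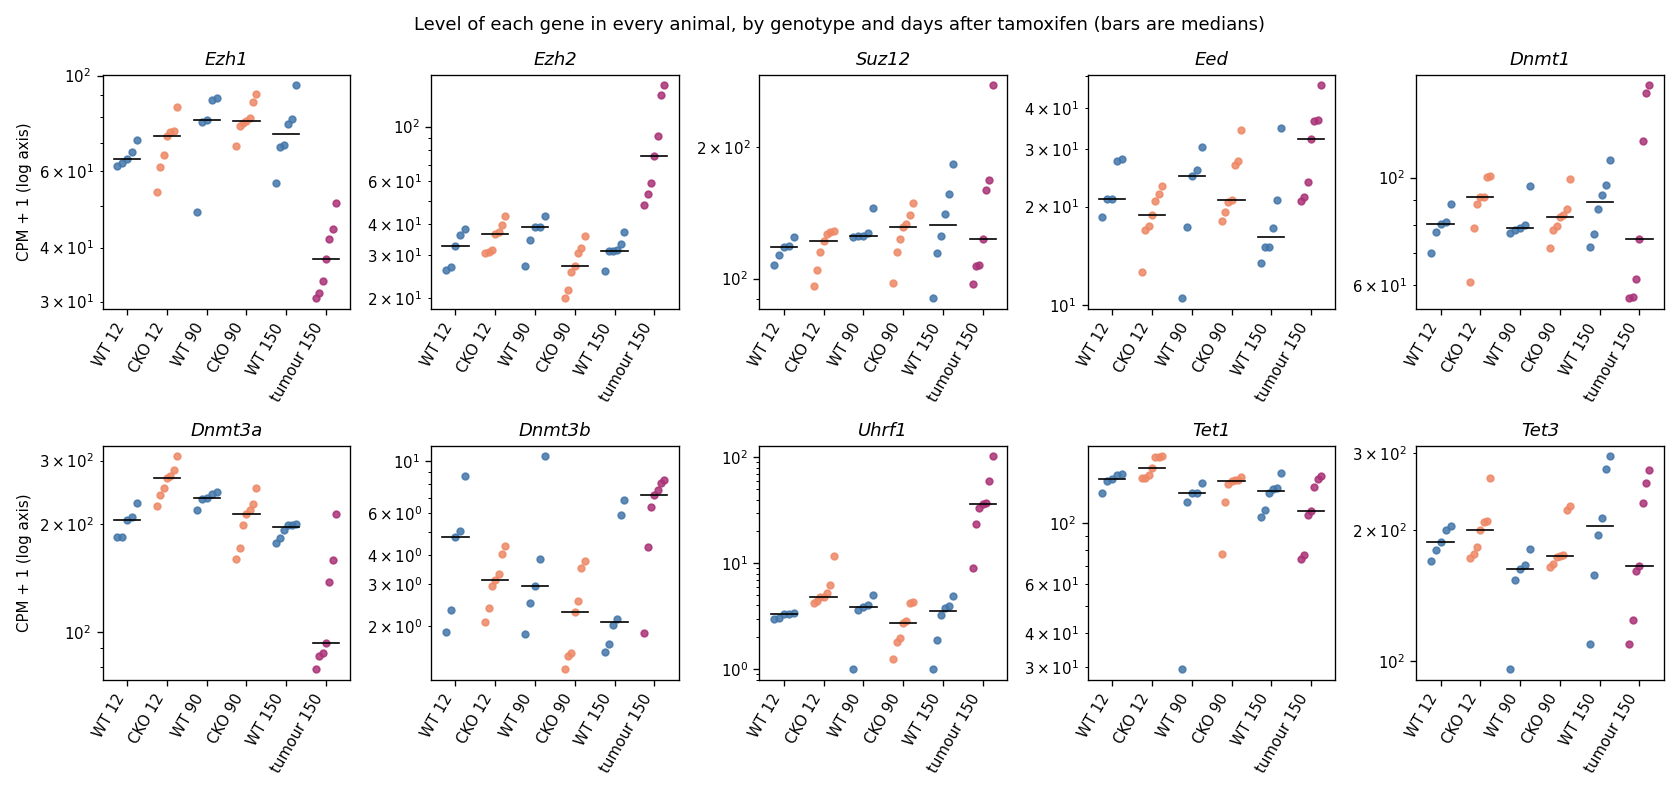
Level of each of the 10 genes (CPM + 1, log axis) in each of the 37 animals, by group, where a point is an animal and a bar the group median. All 7 tumours lie above the other 30 animals for Ezh2, and 6 of 7 lie above them for Uhrf1.

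The first question was whether the tumours differed from WT OPCs of the same time. Between tumours and WT at 150 dpi, 5 of the 10 genes passed the test (edgeR quasi-likelihood test, Benjamini-Hochberg adjusted p under 0.05 over 16346 genes). Ezh2, Eed and Uhrf1 were higher, and Ezh1 and Dnmt3a were lower. Of all genes tested, 46.2% passed (24.3% higher and 21.9% lower), so the count of 5 in 10 is near the background. The median log2 change of the 10 genes was 0.13, beside 0.06 over all genes. Groups did not overlap for 3 genes, Ezh1, Ezh2 and Uhrf1, against 15.7% of all genes. Of the genes that passed, 52.6% were higher, and 64.3% were when libraries were scaled by total counts alone. RLE scaling moved the median change of all genes from 0.06 to 0.22, and the same 5 genes passed in the same direction under every scaling tried.

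**Figure D2:**
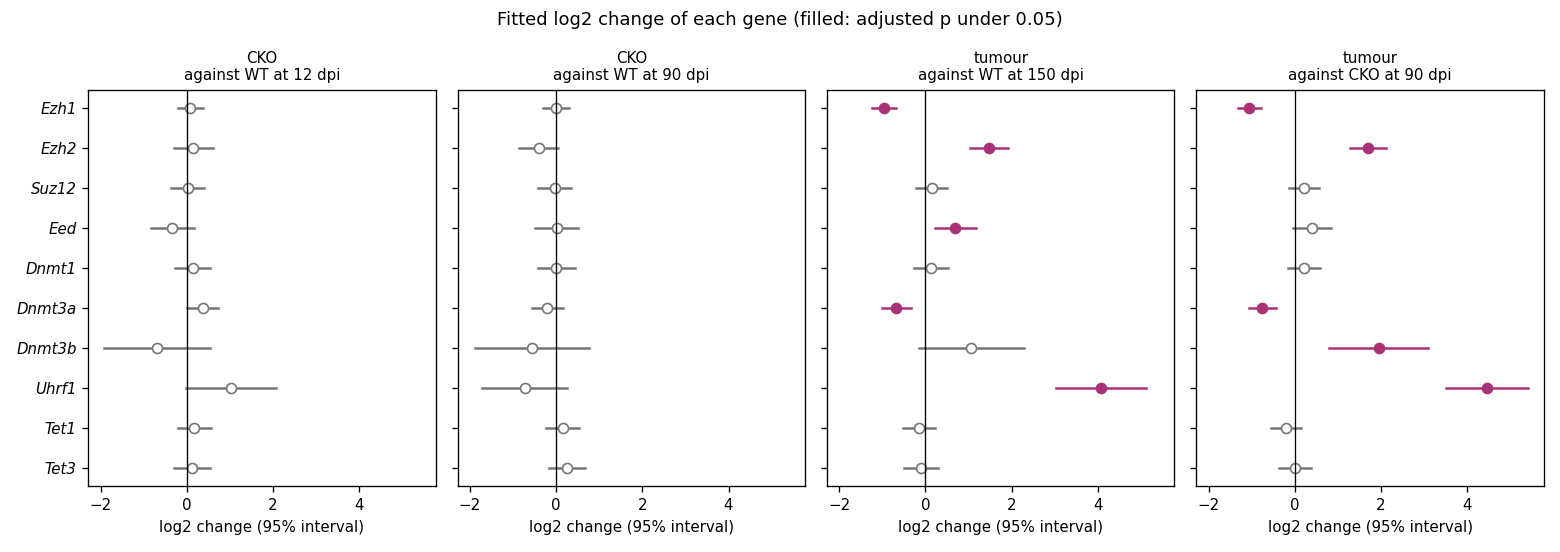
Fitted log2 change of each gene (points) with its 95% interval (lines) in 4 comparisons, filled where the adjusted p was under 0.05. No point is filled in the CKO against WT comparisons at 12 and 90 dpi, and 5 are filled in each tumour comparison.

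The catalytic pair of PRC2 moved in opposite directions. Ezh2 (chromosome 6, 47530139 to 47595341) measured 24.7, 30.2 and 36.2 CPM (lowest, median and highest) in WT at 150 dpi and 47.1, 75.0 and 146 CPM in the tumours. Every tumour lay above every other animal of the study, the highest of which was WT_22184 with 42.2 CPM. Ezh2 was 2.78-fold higher in tumours than in WT (log2 change 1.47, SE 0.21, adjusted p = 5.1e-07). Ezh1 (chromosome 11, 101191115 to 101226463), whose product is the weaker methyltransferase, measured 55.5, 72.3 and 93.9 CPM in WT at 150 dpi and 29.5, 36.6 and 49.8 CPM in the tumours. All 7 tumours lay below all 6 WT animals, a change of -0.97 log2 units (SE 0.13, adjusted p = 2.5e-07). Against the 30 other animals 6 tumours lay below all, the exception overlapping only with WT_21167 at 47.4 CPM, a value from 5 counts.

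Of the core subunits shared by both forms of the complex, Eed rose and Suz12 did not pass. Eed (chromosome 7, 89954654 to 89980983), which binds the methylated histone, measured 12.5, 15.2 and 33.7 CPM in WT at 150 dpi and 19.8, 31.3 and 45.9 CPM in the tumours. Its groups overlapped through WT_22064, the highest WT animal, and the gene rose by 0.70 log2 units (SE 0.23, adjusted p = 0.013). Suz12 (chromosome 11, 79993106 to 80034123), which holds the complex together, measured 89.0, 132 and 182 CPM in WT and 96.3, 122 and 276 CPM in the tumours. The Suz12 difference was 0.14 log2 units, with a 95% interval from -0.22 to 0.50 and an adjusted p of 0.54.

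The ratio of Ezh2 to Ezh1 counts within an animal separated the tumours from all other animals. In WT it ran from 0.265 to 0.818 over the 3 times, the highest from 4 Ezh2 and 5 Ezh1 counts of WT_21167 and the next highest 0.567, and in CKO before tumours from 0.212 to 0.576, below 1 in all 30 animals. The lowest CKO value was that of CKO_20647, and the next lowest was 0.267. In the tumours it ran from 1.28 to 4.51 with a median of 1.55. Library scaling cancels in this ratio. The ratio of Dnmt1 to Dnmt3a was 0.269 to 0.563 in the 30 other animals and 0.654 to 1.09 in the tumours. Tet1 to Tet3 ratios overlapped, at 0.298 to 1.36 in tumours and 0.333 to 1.01 elsewhere, the lowest of these from 3 Tet1 and 10 Tet3 counts of WT_21167 and the next lowest 0.376.

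**Figure D3:**
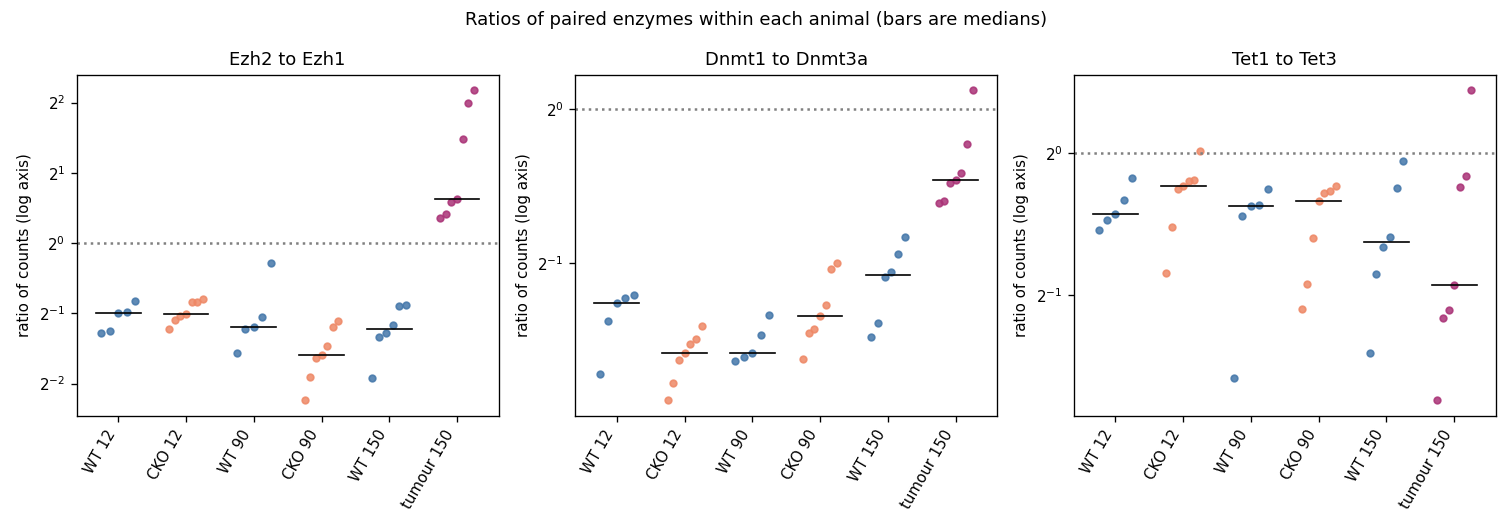
Count ratio of Ezh2 to Ezh1, Dnmt1 to Dnmt3a and Tet1 to Tet3 within each animal (log axis), where a point is an animal, a bar the group median and the dotted line a ratio of 1. The Ezh2 to Ezh1 ratio is above 1 in the 7 tumours and below 1 in the other 30 animals.

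Among 8 further PRC2 partners, 2 rose and 3 fell in tumours against WT, where 46.2% of all genes passed (24.3% higher and 21.9% lower). Phf19, a subunit that targets the complex to CpG islands, rose by 2.54 log2 units (SE 0.53, adjusted p = 1.5e-04) and the histone-binding Rbbp7 rose by 0.47 (SE 0.19, adjusted p = 0.037). Lcor, the row that holds the PALI1 form of the gene, fell by 1.17 (SE 0.33, adjusted p = 0.0039) and Mtf2, a relative of Phf19, fell by 0.61 (SE 0.25, adjusted p = 0.043). Under RLE scaling, total counts or DESeq2, Mtf2 and Jarid2 no longer passed. The 2 H3K27 demethylases of the list did not pass, with log2 changes of 0.12 for Kdm6b and -0.01 for Kdm6a. The lists were chosen with earlier results of these data in view.

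In the maintenance of DNA methylation, the recruiter Uhrf1 rose and the enzyme gene Dnmt1 did not pass. Uhrf1 (chromosome 17, 56303321 to 56323486) measured 0, 2.53 and 3.97 CPM in WT at 150 dpi and 7.96, 35.3 and 101 CPM in the tumours. The WT values rest on 0 to 43 counts and the tumour values on 37 to 2869. Uhrf1 was 16.8-fold higher in tumours, a log2 change of 4.07 (SE 0.51, adjusted p = 3.5e-08), with no overlap. Dnmt1 (chromosome 9, 20907209 to 20959888) measured 70.9, 88.2 and 108 CPM in WT and 55.3, 73.9 and 154 CPM in the tumours. The tumours fell on both sides of WT, with 3 above and 3 below all 6 WT animals. The Dnmt1 difference was 0.12 log2 units, with a 95% interval from -0.27 to 0.51 and an adjusted p of 0.66.

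Of the de novo enzymes, Dnmt3a fell and Dnmt3b did not pass. Dnmt3a (chromosome 12, 3806007 to 3914443) measured 176, 195 and 199 CPM in WT at 150 dpi and 77.7, 92.1 and 212 CPM in the tumours. Of the 7 tumours 6 lay below all WT animals and 1, Tumor_21349, lay above them. The change was -0.67 log2 units (SE 0.16, adjusted p = 9.0e-04). Dnmt3b (chromosome 2, 153649450 to 153687730), active mainly in early embryos, measured 0.545, 1.08 and 5.80 CPM in WT and 0.862, 6.20 and 7.32 CPM in the tumours. Its difference from WT was 1.06 log2 units (95% interval -0.15 to 2.28, adjusted p = 0.14). It passed when WT_21591 was left out (1.50, adjusted p = 0.048).

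Of 10 tested partners of DNA methylation, 3 rose and 2 fell against WT, beside 46.2% of all genes (24.3% higher and 21.9% lower). Hells, a chromatin remodeller needed for methylation of repeats, rose by 1.90 log2 units (SE 0.37, adjusted p = 6.0e-05). Uhrf2, the relative of Uhrf1, fell by 1.07 (SE 0.13, adjusted p = 1.2e-08) and the deubiquitinase Usp7 fell by 0.47 (SE 0.13, adjusted p = 0.0024), a call lost with total counts. Of 8 methyl-CpG readers, 5 fell and 0 rose (21.9% and 24.3% of all genes), with a median of -0.59. Zbtb4 fell by 0.95 (SE 0.17, adjusted p = 1.1e-05) and Zbtb38 fell by 0.86 (SE 0.17, adjusted p = 1.0e-04). RLE scaling, total counts and DESeq2 each left 4 readers lower, without Mbd4.

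Neither TET gene passed. Tet1 (chromosome 10, 62804570 to 62908996) measured 104, 130 and 152 CPM in WT at 150 dpi and 73.3, 110 and 147 CPM in the tumours, a log2 difference of -0.15 (95% interval -0.52 to 0.21, adjusted p = 0.52). Tet3 (chromosome 6, 83362373 to 83459084) measured 108, 202 and 294 CPM in WT and 108, 164 and 273 CPM in the tumours, a difference of -0.11 (95% interval -0.51 to 0.28, adjusted p = 0.67). Of 8 genes that act with or after them in the removal of 5-methylcytosine, 2 rose and 2 fell. Over all genes, 24.3% were called higher and 21.9% lower. Tdg, the glycosylase that cuts out oxidised bases, rose by 0.91 log2 units (SE 0.22, adjusted p = 7.3e-04), and Idh1, which makes the TET cofactor, rose by 0.67 (SE 0.15, adjusted p = 5.0e-04). Ogt, a binding partner of TET proteins, fell by 1.20 (SE 0.15, adjusted p = 4.4e-08).

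Cell type markers also differed between tumours and WT at 150 dpi, where 24.3% of all genes were called higher and 21.9% lower. The 10 neuron markers summed to 7519 to 11126 CPM in WT at 150 dpi and to 250 to 1487 CPM in the tumours, 8 of them called lower, and Rbfox3 went from 181 to 250 CPM to between 0.994 and 9.03 CPM. The 10 OPC markers summed to 1754 to 3345 CPM in WT and 4014 to 8291 CPM in tumours, with 8 called higher. Of 8 microglia markers 7 were higher (89.7 to 125 against 232 to 751 CPM), and of 10 oligodendrocyte markers 6 were lower and 1 higher (1563 to 3152 against 392 to 1640 CPM). Of 8 astrocyte markers 3 were higher and 3 lower (2692 to 4006 against 1059 to 3579 CPM), and of 8 endothelial markers 1 was lower (186 to 256 against 86.5 to 224 CPM). The 26 cell cycle genes summed to 200 to 267 CPM in WT and 727 to 3887 CPM in tumours, with 25 called higher. No defining marker of these lists was at 0 in any animal of the 2 groups, and the part of these lists in the changes of the 10 genes was not tested.

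Compared with CKO OPCs at 90 dpi, 5 of the 10 genes passed as well, beside 49.0% of all genes (26.4% higher and 22.6% lower), so this count is again near the background. Tumours enter both comparisons, which therefore are not independent. Ezh2 went from 19.0, 26.2 and 34.8 CPM in CKO at 90 dpi to the tumour values above, a log2 change of 1.70 (SE 0.20, adjusted p = 8.0e-09). Uhrf1 went from 0.256, 1.72 and 3.34 CPM, a change of 4.45 (SE 0.47, adjusted p = 5.8e-10). Ezh1 went from 67.8, 77.5 and 89.6 CPM, a change of -1.06 (SE 0.13, adjusted p = 1.7e-08). These 3 genes did not overlap between the groups, against 17.2% of all genes.

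Dnmt3a and Dnmt3b were the other 2 genes to pass. Dnmt3a measured 158, 212 and 250 CPM in CKO at 90 dpi and changed by -0.76 log2 units (SE 0.16, adjusted p = 1.3e-04). Dnmt3b measured 0.306, 1.30 and 2.76 CPM there and rose by 1.95 log2 units (SE 0.56, adjusted p = 0.0041), on 2 to 86 counts per CKO animal. Eed measured 17.1, 19.9 and 33.3 CPM in CKO at 90 dpi, a difference of 0.40 (95% interval -0.05 to 0.84, adjusted p = 0.13). It passed under DESeq2 (adjusted p = 0.021) and RLE scaling (0.027). Without CKO_20647 the same number of genes passed, with changes of 1.63 for Ezh2, 4.33 for Uhrf1 and 1.73 for Dnmt3b.

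In the partner lists, 3 PRC2 partners rose and 1 fell against CKO at 90 dpi. All lists here stand beside 26.4% of all genes called higher and 22.6% called lower. Phf19 rose by 2.71 log2 units (SE 0.47, adjusted p = 9.9e-06) and Rbbp4, a histone-binding subunit, rose by 1.04 (SE 0.29, adjusted p = 0.0028). Of the 10 tested DNA methylation partners 3 rose and 2 fell, led by Hells with a rise of 2.31 (SE 0.35, adjusted p = 9.7e-07). Of the 8 methyl-CpG readers 5 fell, with Zbtb4 lower by the most, a change of -0.96 (SE 0.16, adjusted p = 5.4e-06), but RLE scaling left 3 lower and 1 higher. Of the 8 partners of 5-methylcytosine removal 3 rose and 3 fell. All 10 neuron markers were lower than in CKO at 90 dpi, where they summed to 7180 to 14977 CPM. All 26 cell cycle genes and all 8 microglia markers were higher, from sums of 227 to 316 and 76.3 to 145 CPM in CKO.

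The next question was whether the 2 deletions changed the genes before tumours were present. None of the 10 genes passed between CKO and WT at 12 dpi or at 90 dpi, beside 0.0184% (0.00612% higher and 0.0122% lower) and 0.0489% of all genes, by edgeR or by DESeq2. Groups did not overlap for 1 gene at 12 dpi and for 0 at 90 dpi, against 1.33% and 0.759% of all genes. At an unadjusted p under 0.05 stood 1 of the 10 genes at 12 dpi and 0 at 90 dpi, beside 793 and 850 of all 16346 genes. That gene was Dnmt3a, which measured 183, 183, 204, 208 and 227 CPM in the 5 WT animals at 12 dpi and 223, 267 and 307 CPM in CKO. Its log2 difference was 0.37 (95% interval 0.01 to 0.72, adjusted p = 1.00). At 90 dpi the Dnmt3a difference was -0.20 (95% interval -0.56 to 0.15).

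The gene whose groups did not overlap at 12 dpi was Uhrf1. It measured 2.01, 2.03, 2.34, 2.34 and 2.43 CPM in WT and 3.25, 3.84 and 10.6 CPM in CKO at 12 dpi, on 6 to 24 and 9 to 106 counts. The highest value came from CKO_22017. The log2 difference was 1.03 (SE 0.51, adjusted p = 1.00 in the edgeR fit). At 90 dpi Uhrf1 lay at 0, 2.66, 2.88, 3.00 and 4.00 CPM in WT, with the 0 in WT_21167, and the log2 difference was -0.73 (95% interval -1.72 to 0.26).

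Ezh2 and Ezh1 are given next with their intervals, although that of Ezh2 was wider than those of several other genes. Ezh2 measured 25.0, 25.8, 31.6, 35.3 and 37.2 CPM in WT and 29.6, 35.6 and 42.1 CPM in CKO at 12 dpi, a log2 difference of 0.15 (95% interval -0.30 to 0.60). At 90 dpi it measured 26.0, 33.5, 37.9, 37.9 and 42.2 CPM in WT, and the difference of CKO was -0.40 (95% interval -0.86 to 0.05). Ezh1 differed by 0.08 (95% interval -0.21 to 0.37) at 12 dpi and by -0.00 (95% interval -0.30 to 0.29) at 90 dpi. The remaining 6 genes had log2 differences from -0.69 (Dnmt3b) to 0.18 (Tet1) at 12 dpi and from -0.56 (Dnmt3b) to 0.25 (Tet3) at 90 dpi. At 90 dpi the Dnmt3b difference was -0.32 without CKO_20647 and -0.42 without WT_21167, and that of Uhrf1 was -0.60 and -0.75. Ezh2 differed by -0.34 and -0.40 without these animals, Ezh1 by -0.04 and -0.07, and Dnmt3a by -0.15 and -0.23.

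With time alone, none of the 10 genes passed in CKO from 12 to 90 dpi, in WT from 12 to 90 dpi or in WT from 90 to 150 dpi. Background shares were 0%, 0.00612% and 0.0184% (0.0122% higher), and DESeq2 called 0 of the 10 genes in each. Groups did not overlap for 0 of the 10 genes in the first of these comparisons and 0 in the second, against 0.0979% and 2.95% of all genes. Over all genes in CKO from 12 to 90 dpi edgeR called 0 and DESeq2 2, and 692 had an unadjusted p under 0.05. Of the 10 genes 2 were among these. Uhrf1 differed by -1.35 log2 units (SE 0.43, unadjusted p = 0.0036, adjusted p = 1.00 in the edgeR fit) and Dnmt3a by -0.36 (SE 0.16, unadjusted p = 0.026, adjusted p = 1.00 in the edgeR fit). Without CKO_20647 the differences were -1.22 and -0.31. From 90 to 150 dpi in WT Dnmt3a did not overlap between the groups, at 218 to 244 and 176 to 199 CPM, against 0.875% of all genes, with a log2 difference of -0.29 (SE 0.18, adjusted p = 0.74).

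The change of the genotype difference over time was tested directly. From 12 to 90 dpi 0 of the 10 genes passed by edgeR or DESeq2, beside 0% of all genes, with 2 (Uhrf1 and Dnmt3a) at an unadjusted p under 0.05, as were 589 of all 16346 genes. Without CKO_20647 these changes were -1.63 for Uhrf1 and -0.53 for Dnmt3a, beside -1.75 and -0.57 with it. From 90 to 150 dpi 3 passed, beside 30.0% of all genes (14.2% higher and 15.8% lower). The CKO group at 150 dpi was the tumours, so time and tumour formation cannot be told apart here. The same tumours enter the 2 tumour comparisons above. The difference from WT grew by 4.80 log2 units for Uhrf1 (SE 0.69, adjusted p = 1.0e-06) and by 1.88 for Ezh2 (SE 0.31, adjusted p = 9.2e-06). It changed by -0.96 for Ezh1 (SE 0.20, adjusted p = 2.5e-04). Without WT_21167 these values were 4.82, 1.87 and -0.90, and 3 genes passed. Of all genes that passed 47.2% were higher, and 57.3% were under RLE scaling. Eed, at a change of 0.69 (SE 0.34, adjusted p = 0.13), passed under 5 other settings and without WT_22064 (adjusted p = 0.010). Dnmt3a, at -0.47 (SE 0.24, adjusted p = 0.14), passed without Tumor_21349 (-0.59, adjusted p = 0.024).

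Between the 7 tumours, the genes differed in how they followed the cell cycle list, whose mean log2 CPM ran from 3.60 to 6.45. Over all 5040 orderings of the tumours (exact permutation, two-sided, adjusted over the 10 genes), 5 genes had an adjusted p under 0.05. The share of all genes that would pass was not measured, so the count of 5 is not set against a background. Uhrf1 had r = 0.94 (rho 0.96, raw exact p = 0.0026, adjusted 0.0086) and Ezh2 had r = 0.92 (rho 0.96, raw exact p = 0.0016, adjusted 0.0079). Dnmt1, which did not pass between tumours and WT, had r = 0.88 (rho 0.96, raw exact p = 0.0014, adjusted 0.0079). Eed had r = 0.87 (rho 0.89, raw exact p = 0.0099, adjusted 0.025), and Dnmt3a, lower in tumours, had r = 0.83 (rho 0.93, raw exact p = 0.018, adjusted 0.037). The adjusted exact p-values for rho of these 5 genes ran from 0.0093 to 0.025.

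Without the 2 tumours farthest from the median of the list, Tumor_21256 and Tumor_21349, r was 0.94 for Ezh2, 0.95 for Dnmt1, 0.88 for Dnmt3a, 0.74 for Eed and 0.68 for Uhrf1. With the proliferation marker Mki67 alone in place of the list, 0 of the 10 genes passed, and r was 0.62 for Ezh2, 0.50 for Dnmt1, 0.55 for Uhrf1, 0.41 for Eed and 0.42 for Dnmt3a. The relation thus held for the list of 26 genes and not for that marker. Ezh1 had r = -0.01 (rho -0.21, raw exact p = 0.99, adjusted 0.99). Suz12, Dnmt3b, Tet1 and Tet3 had r from 0.15 to 0.51 (adjusted exact p from 0.41 to 0.84). For 3 of these the value rested on the 2 tumours farthest from the median: without them r was -0.77 for Ezh1, 0.81 for Suz12 and 0.84 for Tet3, over 5 tumours.

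**Figure D4:**
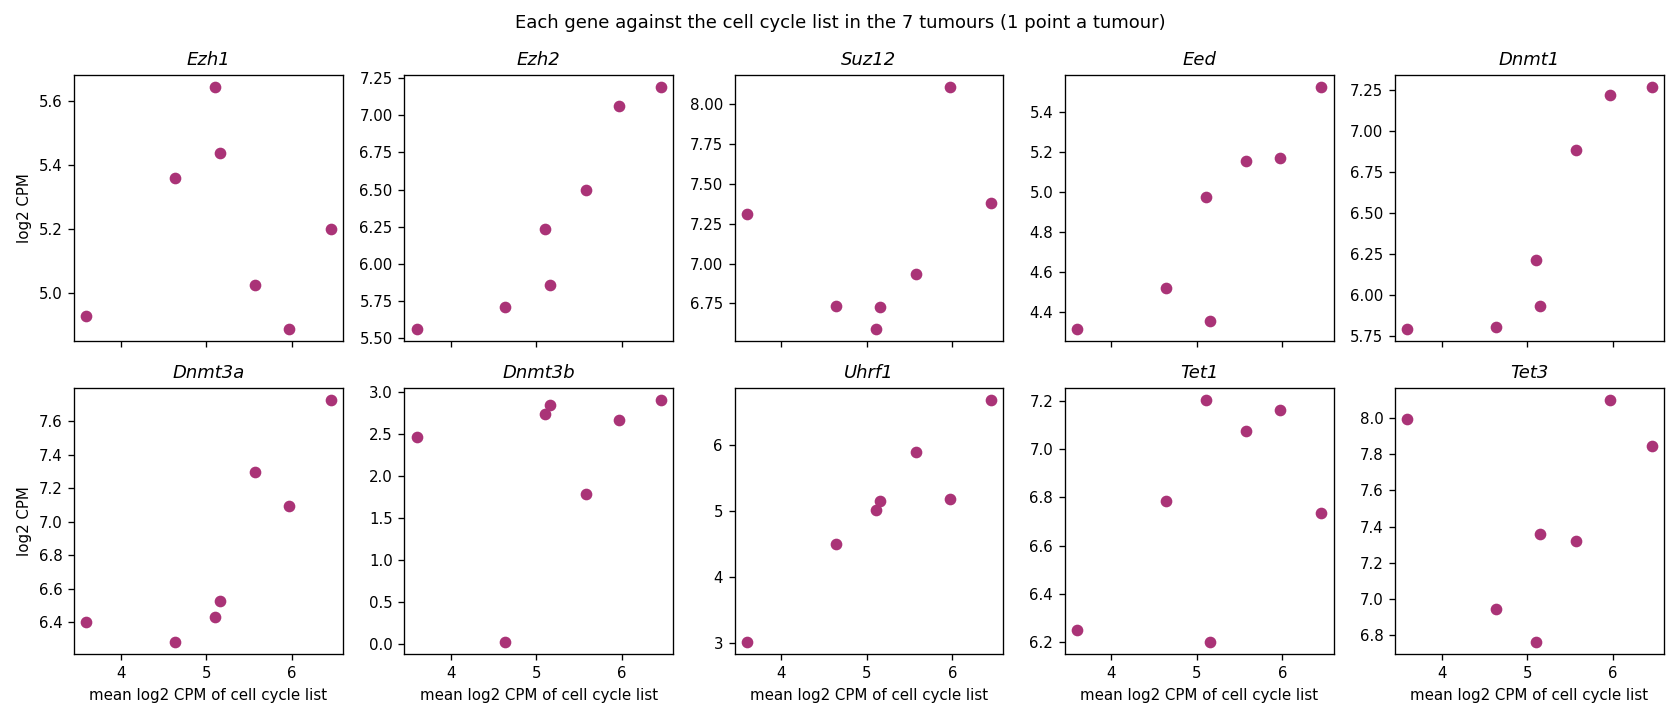
Level of each gene (log2 CPM) against the mean log2 CPM of the 26 cell cycle genes in the 7 tumours, where a point is a tumour. Ezh2, Dnmt1 and Uhrf1 rise with the list (r from 0.88 to 0.94) and Ezh1 does not (r = -0.01).

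Across all 37 animals, after the mean of each group was subtracted, each gene was matched to the 2 genes most like it by Pearson r among genes above the median level. Suz12 was most like Strap (r = 0.92) and Psip1 (r = 0.87). Ezh2 was most like Hbp1 (r = 0.79) and Map3k20 (r = 0.74), and Ezh1 like Igsf11 (r = 0.72) and Tpp1 (r = 0.71). Dnmt1 was most like Trim37 (r = 0.80) and Slc7a6 (r = 0.79), and Dnmt3a like Cpsf2 (r = 0.82) and Slc7a6 (r = 0.81). Uhrf1 was most like Hsd17b12 (r = 0.79) and Notch1 (r = 0.76), Eed like Sae1 (r = 0.78) and Psmd7 (r = 0.77), and Dnmt3b like Trim39 (r = 0.60) and Rspry1 (r = 0.58). Tet1 was most like Hsd17b10 (r = 0.88) and Wdr48 (r = 0.88), which fell to 0.73 and 0.72 without WT_21167, and Tet3 like Nufip2 (r = 0.85) and Med13 (r = 0.83). Without that animal r also fell to 0.62 and 0.60 for Ezh1 and to 0.72 and 0.68 for Uhrf1. It fell to 0.73 and 0.71 for Eed and to 0.55 and 0.57 for Dnmt3b. These values are the best of many genes over animals that share library depth, and are given as a description.

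In the small libraries of CKO mice, the most widely detected of the 10 genes were Dnmt3a and Dnmt1. Dnmt3a had at least 1 count in 43 of 56 10-cell libraries at 12 dpi (76.8%, exact 95% binomial interval 63.6 to 87.0%) and in 50 of 56 at 90 dpi (89.3%, 78.1 to 96.0%). Dnmt1 was detected in the same numbers. Uhrf1 was detected in 4 of 56 (7.14%, 1.98 to 17.3%) and 6 of 56 (10.7%, 4.03 to 21.9%), and Dnmt3b in 3 of 56 (5.36%, 1.12 to 14.9%) at each time. These intervals cover counting error only. Median depth was 4.48 M counts at 12 dpi and 4.04 M counts at 90 dpi, and the median number of genes detected per library was 7496 and 10070.

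Co-detection within a library was counted next. Ezh1 and Ezh2 were both detected in 18 of 56 10-cell libraries at 12 dpi, Ezh1 without Ezh2 in 18, Ezh2 without Ezh1 in 7 and neither in 13. At 90 dpi the counts were 25, 16, 7 and 8. Suz12, Eed and at least 1 of the catalytic genes were found together in 22 of 56 10-cell libraries at 12 dpi and 36 of 56 at 90 dpi, and in 14 and 21 of 40 pool-and-split libraries. Dnmt1 and Uhrf1 were found together in 4 of 56 10-cell libraries at each time and in 5 of 40 pool-and-split libraries at each time. Co-detection expected from the separate detection rates was not computed, and 10-cell libraries at 90 dpi had more genes detected. The counts are therefore a description and no measure of shared expression or of change with time. Snap25 was detected in 100% of the small libraries and Mki67 in 12.5% and 23.2% of the 10-cell libraries, so neuronal RNA was present in each.

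**Figure D5:**
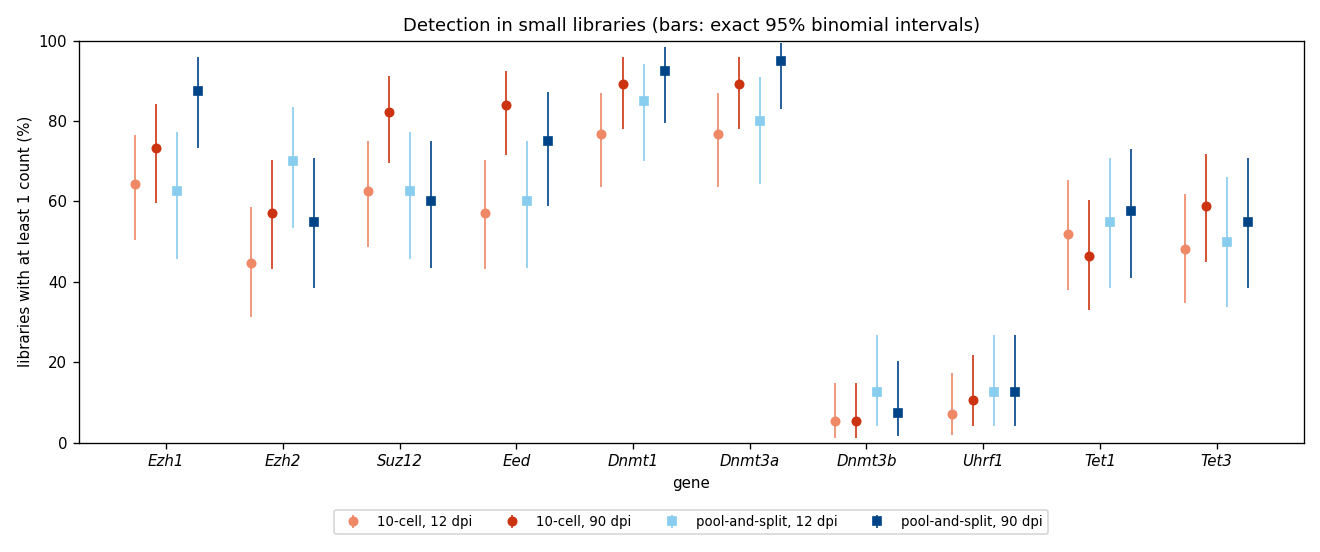
Share of small libraries with at least 1 count of each gene, by kind of library and time, with exact 95% binomial intervals. Dnmt1 and Dnmt3a are detected in 76.8 to 95.0% of libraries, and Dnmt3b and Uhrf1 in 5.36 to 12.5%.

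Levels in the small libraries were compared between 90 and 12 dpi over 4 sets of libraries per time, a set being the libraries of a sex and label number. None of the 10 genes passed in either kind, beside 0% of all genes (edgeR). Over all genes, 1118 of 15178 in 10-cell and 1122 of 14220 in pool-and-split sets had an unadjusted p under 0.05. DESeq2 called 326 and 580 genes, none of them among the 10. Dnmt3b could not be tested in the 10-cell and Uhrf1 in the pool-and-split sets. Ezh2 had the lowest p of the 10, with mean levels per set of 11.1 to 191 CPM at 12 dpi and 1.86 to 11.7 CPM at 90 dpi in pool-and-split libraries, a log2 difference of -2.58 (SE 1.12, adjusted p = 0.63). In 10-cell sets its difference was -0.79 (SE 0.96, adjusted p = 0.89).

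The spread between libraries was compared between the 2 kinds, since pool-and-split aliquots share their cells and 10-cell samples do not. Of the 10 genes 7 could be tested at 12 dpi and 8 at 90 dpi, Uhrf1 and Dnmt3b at neither time. None of those tested passed (limma on absolute deviations, adjusted p from 0.62 to 0.98 and from 0.50 to 0.94), beside 0.0254% and 0.621% of all genes. Called genes with the larger spread in 10-cell libraries made up 0.0254% and 0.259% of all genes, so most calls at 90 dpi went the other way. At an unadjusted p under 0.05 there were 0 of the tested genes at either time. The mean deviation of Ezh2 at 12 dpi was 1.59 log2 units in 10-cell and 2.33 in pool-and-split libraries, a difference of -0.74 (SE 0.46). For Eed at 90 dpi it was 1.32 and 0.94, a difference of 0.38 (SE 0.23). Variation between small samples beyond that between aliquots was therefore not detectable at this depth for the genes tested.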

How the data were processed

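RNA of laser-captured mouse brain cells was sequenced in 48 bulk libraries (T7 amplification, per the labels' protocols) and 192 libraries of 10 cells (PCR). The deposited values are expected counts per gene, made by the authors with RSEM and Bowtie2 on GRCm38, per the submitters' processing notes; versions are not given in the sources used here. Expected counts were rounded, 92 spike-ins removed and the libraries of each animal summed.

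Bulk counts were filtered with filterByExpr (minimum of 10 counts and of 15 in total), which left 16346 genes with all 10 of interest, and normalised by TMM. A single edgeR 4.0.16 model (R 4.3.3) of 6 groups and sex, over 37 animals, gave quasi-likelihood tests. Standard errors came from the F statistic and intervals used 30 degrees of freedom. CPM use TMM-scaled totals, log2 CPM a prior count of 2, and ratios an offset of 0.5 counts. Small libraries were summed per set for edgeR. Their spread was tested with limma 3.58.1 on log2(CPM + 1) of genes found in 50% of libraries. DESeq2 1.42.0, other scalings and filters, and leaving out each animal were alternatives. The labels do not say that small libraries or sets come from separate animals, so those p-values measure the spread between sets or libraries. Scripts were tested on simulated counts.

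The 10 genes, 16 lists and tests were chosen with earlier results of these data known. In each list up to 2 called genes per direction were named, by size of change, besides defining markers; Kdm6a, Kdm6b, Jarid2 and Mbd4 were named after their values were seen. A called gene of the DNA methylation partners is not reported here by name. Exon lengths are from GENCODE M21.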

Additional observations from a re-analysis of the deposited data

Results flagged for a closer look

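In 100 checks of a gene within a group, 18 had a highest or lowest value separated from the rest by more than Dixon's 95% limit. Chance gives about 5 for independent normal values. Checks that share an animal, and means of CPM over small libraries, need not be such values. The 18 are therefore given as a description. Of the 18, 9 were in bulk groups, compared on log2 CPM. The shallow animal WT_21167 gave 4 of them within WT at 90 dpi: Ezh1 at 47.4 CPM (5 counts, others 76.9 to 87.6), Tet1 at 28.4 CPM (3 counts, others 119 to 139), Tet3 at 94.8 CPM (10 counts, others 152 to 179) and Uhrf1 at 0 CPM (others 2.66 to 4.00). In the same group WT_22254 was the highest for Suz12, at 144 CPM (others 123 to 126), and for Dnmt1, at 95.1 CPM (others 75.8 to 78.7). Tet1 measured 76.0 CPM in CKO_20647 (others 119 to 146), whose 2 libraries differed from each other. Dnmt3b measured 0.862 CPM in Tumor_16844 (others 3.31 to 7.32). Uhrf1 measured 10.6 CPM in CKO_22017 at 12 dpi (others 3.25 to 5.28).

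The other 9 were means over the small libraries of a set, each far above the remaining 3 sets. In pool-and-split sets at 12 dpi these were Suz12 at 82.1, Eed at 82.8 and Dnmt3b at 14.3 CPM (others up to 7.13, 6.11 and 0.0788). In pool-and-split sets at 90 dpi they were Ezh1 at 25.1, Dnmt3b at 3.97, Uhrf1 at 1.08 and Tet3 at 103 CPM (others up to 8.45, 0.522, 0.121 and 2.95). In 10-cell sets they were Tet1 at 45.2 CPM at 12 dpi and Dnmt1 at 26.0 CPM at 90 dpi (others up to 4.90 and 8.07).

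The difference between CKO and WT changed from 90 to 150 dpi, by the test of that change, for Uhrf1 (4.80 log2 units), Ezh2 (1.88) and Ezh1 (-0.96). The CKO group at 150 dpi was the tumours.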

How the results depend on the processing

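Over 458 alternatives to the counts of the 10 genes passing a test, 457 left the count within 1.5 times. The exception was the relation between tumours, where 5 of 10 genes passed with the cell cycle list and 0 with Mki67 alone. Of 4940 further values, 4847 stayed on their side of the threshold or, for counts over all genes, within 1.5 times. Another 5 were weaker and 13 were stronger. Of values that passed in either fit 0 reversed, and direction was not compared where neither passed. The other 75 were counts over all genes that moved by more than 1.5 times. These counts over all genes (edgeR, then DESeq2) were 3 and 13 for CKO against WT at 12 dpi, 8 and 18 at 90 dpi, 0 and 2 for CKO from 12 to 90 dpi, 1 and 9 for WT from 12 to 90 dpi, 3 and 20 for WT from 90 to 150 dpi, 0 and 6 for the change of the genotype difference to 90 dpi, 0 and 326 in 10-cell sets and 0 and 580 in pool-and-split sets. With the compared groups alone, 90 genes passed for CKO against WT at 12 dpi, 285 for WT from 12 to 90 dpi, 6 for WT from 90 to 150 dpi and 1 for CKO from 12 to 90 dpi. With genes of at least 10 CPM, 1 passed at 12 dpi and 4 at 90 dpi for CKO against WT. Without sex, 5 passed for WT from 90 to 150 dpi; with a robust spread, 0 for WT from 12 to 90 dpi; with no filter, 1 for the genotype difference to 90 dpi and 1 in pool-and-split sets. With each small library as a sample, 355 and 336 passed. Spread at 12 dpi was called for 2 genes, and for 11, 0 and 6 under a pseudocount of 0.1 or 5 or detection in 90% of libraries. Leaving out a sample gave 2 to 6, 4 to 9, 0 to 1, 0 to 1, 1 to 6 and 0 to 1 genes in the 6 bulk comparisons in the order above, 0 to 4 for spread at 12 dpi and 19 to 38 (from 60) at 90 dpi. Eed against CKO at 90 dpi passed under 5 settings. The causes were not tested. Dnmt3b was not tested at 10 CPM. With the replicate block of sex and number, 0 of the 10 genes passed in either kind of small library (Ezh2 -2.87 in pool-and-split sets). Same-numbered sets of 12 and 90 dpi correlated at -0.044 to 0.017 and none was most like its own number. These values show no pairing of the sets by number, but 4 sets per time are too few to exclude it. Low counts limit Uhrf1 and Dnmt3b outside tumours.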

Other observations

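Other genes that the 2 marks are known to govern were counted in lists. Shares over all genes in tumours against WT at 150 dpi were 24.3% higher and 21.9% lower. Of 25 polycomb target developmental genes, 10 passed the filter on low counts and 8 were higher and 0 lower in tumours than in WT at 150 dpi. Genes of this list could pass the filter through the tumours alone, so the count is no measure of the list. The list summed to 4.56 to 15.9 CPM in WT, 2.99 to 8.80 CPM in CKO at 90 dpi and 37.5 to 250 CPM in the tumours. Of 18 germline genes held silent by DNA methylation in adult tissue 5 passed the filter, of which 1, Brdt, a testis bromodomain gene, was higher in tumours (log2 change 1.04). The list summed to 11.7 to 79.3 CPM in WT and 16.8 to 123 CPM in tumours, and the ranges overlapped.

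Of 15 imprinted genes tested, 5 rose and 5 fell in tumours against WT, and no called direction changed under RLE scaling, total counts or DESeq2. Over all genes 46.2% passed in this comparison (24.3% higher and 21.9% lower). Cdkn1c, a cyclin-dependent kinase inhibitor, rose by 2.26 log2 units (SE 0.52, adjusted p = 5.2e-04 in the edgeR fit) and Mest rose by 1.85 (SE 0.46, adjusted p = 0.0012). Plagl1, a zinc finger gene, fell by 2.54 (SE 0.42, adjusted p = 4.8e-06) and Snrpn, a splicing gene expressed in neurons, fell by 2.13 (SE 0.20, adjusted p = 3.1e-11). Of 20 genes of PRC1, the complex that reads H3K27 methylation, 2 rose and 3 fell, beside the same shares of all genes. Cbx2 rose by 1.29 (SE 0.36, adjusted p = 0.0037) and Kdm2b by 1.18 (SE 0.25, adjusted p = 1.6e-04), while Cbx7 fell by 1.33 (SE 0.19, adjusted p = 5.4e-07) and Cbx6 fell by 1.23 (SE 0.11, adjusted p = 2.6e-11). The neuron markers differed between the same groups, and their part in the changes of these lists was not tested.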
